A study of Equus caballus with 24 samples.

Results

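The long bone epiphysis of juvenile Mongolian horses (MHs) was compared with that of adult MHs by RNA-seq. The comparison takes the reads of 6 of the 24 libraries of the series, 3 juvenile libraries (MHLBJ 1 to 3) and 3 adult libraries (MHLBA 1 to 3), over all 24232 genes of the deposited table. All 6 horses were female MHs with no treatment named in the labels. Each gave 1 library to this comparison, and the labels give the stage of each horse but not its age. The study counts horses under 3 years as juvenile and those over 3 years as adult, and reports ages with its body measurements. The epiphysis is the end of a long bone, and the labels do not name which long bone it was. The study set this comparison beside the smaller Debao pony (DP) to ask which genes accompany growth to adult size. The 6 DP long bone libraries (DPLBJ 1 to 3 and DPLBA 1 to 3) enter here only for a test of the difference between the breeds.

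A growing long bone lengthens at the growth plate, a cartilage layer at the border of the epiphysis. Its chondrocytes lay down a matrix of type II collagen and aggrecan, enlarge, and are replaced by bone that osteoblasts make and osteoclasts resorb. Growth hormone acts on these cells through its receptor GHR and through IGF1, and the plate closes when the animal is mature. The marrow spaces of the epiphysis hold blood-forming cells, lymphocytes, vessels and fat, and fat takes a growing share with age.

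The libraries held between 11616518 and 27007342 reads on genes. Levels are given as CPM, counts scaled by library size and TMM factor over the 6 libraries, and each set of 3 values follows the order of the replicate numbers. Where a pair of such sets stands side by side, juveniles come first and adults after. In bulk tissue, fewer cells of a type and less RNA per cell cannot be told apart. Markers of bone and fat were present in all 6 libraries. On the RPKM scale, which corrects for gene length, the osteoblast product SPP1 stood at 4991, 11641 and 2823 in juveniles and 2041, 8847 and 1806 in adults, and the osteoclast protease CTSK at 348, 635 and 240.2 and 109, 997 and 83.2. The adipocyte carrier FABP4 stood at 8057, 7179 and 6348 RPKM in juveniles and 612, 5882 and 7774 in adults, lowest in MHLBA 1. Type II collagen was nearly missing from 5 of the 6 libraries. COL2A1, the type II collagen that defines cartilage, had 1.78, 6.27 and 3.18 CPM in juveniles and 1235, 8.28 and 1.27 CPM in adults. Beyond MHLBA 1 it stood below 10 CPM, against 5.63, 4517 and 11409.6 CPM in juvenile and 5417, 37.4 and 14974 CPM in adult DPs on a scale set within DPs. Red cell precursors were also scarce, with HBB at 0.296, 5.96 and 2.72 CPM in juveniles and 1.66, 1.81 and 3.75 CPM in adults. Bone and fat markers were thus present under the long bone label, while the collagen that defines cartilage was scarce outside 1 adult library.

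Each adult library carried transcripts of an organ other than bone, at a low level in MHLBA 3. Juvenile libraries also held genes of other tissues, as given further below. The 15 genes of the pancreas acinar list, which code for digestive enzymes and their partners, made up 15.8% of the reads of MHLBA 1. Their summed level there was 267187 CPM, against 35 and 69.5 CPM in the other adults and 51.9, 61.02 and 58.5 CPM in juveniles. PNLIP, the pancreatic lipase, had 62294, 0.209 and 3.11 CPM in adults and 0, 1.87 and 2.17 CPM in juveniles, and GCG, the islet hormone glucagon, had 1450.1, 0.0696 and 0.0707 CPM in adults and 0, 0.0889 and 0.138 CPM in juveniles. In MHLBA 1, 1 acinar gene and 1 islet gene had 0 reads. MHLBA 2 carried liver transcripts. The 33 hepatocyte genes summed to 388, 8484 and 176 CPM in adults and 281, 178 and 167 CPM in juveniles, and none had 0 reads in MHLBA 2. ALB, serum albumin, had 9.60, 2373 and 6.44 CPM in adults and 22.6, 1.51 and 1.75 CPM in juveniles. The 23 kidney genes summed to 144, 21.95 and 97.1 CPM in adults and 16.6, 26 and 18.8 CPM in juveniles. In MHLBA 3 they included the tubule protein UMOD at 6.79 CPM, with 0 reads in MHLBA 1 and 0.174 CPM in MHLBA 2. In MHLBA 1 the kidney sum included FXYD2 at 43.99 CPM.

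Genes of other tissues also differed in level between the juvenile libraries. Skeletal muscle genes summed to 909.9, 111 and 57.3 CPM in juveniles and 32.6, 49.5 and 726 CPM in adults, highest in MHLBJ 1 and MHLBA 3. Keratinocyte genes summed to 27.01, 51.7 and 87.7 CPM in juveniles and 268, 41.6 and 34.5 CPM in adults, but the sum of MHLBA 1 was mostly the junction protein DSP (255 CPM), while the basal keratins KRT5 and KRT14 were detected at 13.3 and 4.89 CPM in MHLBJ 3 and had 0 reads in all 3 adults. The intestinal epithelium list summed to 44.99, 36 and 23.6 CPM in juveniles and 69.5, 294 and 23.9 CPM in adults. The organ lists (pancreas acinar, pancreatic islet, hepatocyte, kidney, keratinocyte and intestinal epithelium) were put together after the leading genes of these libraries had been seen. MHLBA 1 stood apart in other measures too. Its 20 most abundant genes took 42.3% of its reads, against 9.94% to 14.6% elsewhere, its TMM factor was 0.599, and its correlation across genes with the other 5 libraries was 0.861 to 0.889, where these 5 had at least 0.948 among themselves. The source of these transcripts was not tested. Results are therefore given with and without MHLBA 1.

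**Figure D1:**
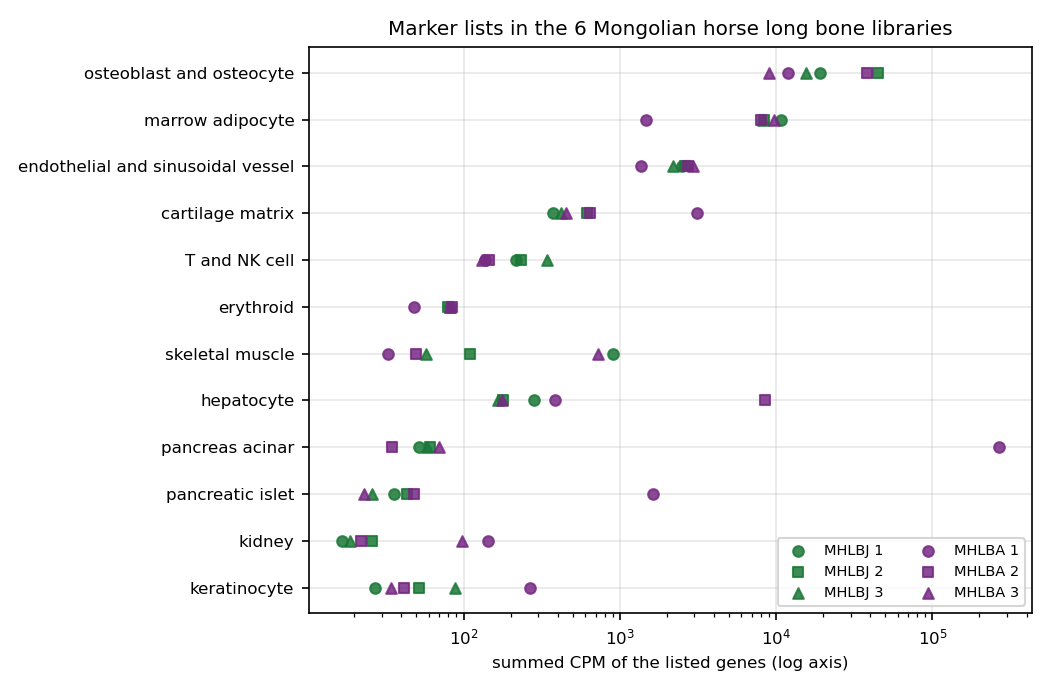
Summed CPM of the genes of 12 marker lists (log axis) in each of the 6 libraries, juveniles in green and adults in purple, with the replicate number given by the marker shape. The pancreas acinar list stands at 267187 CPM in MHLBA 1 and the hepatocyte list at 8484 CPM in MHLBA 2, while the T and NK cell list is higher in every juvenile than in every adult.

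Differentially expressed genes (DEGs) were called with edgeR's quasi-likelihood test by the study's rule, which asks for more than a 2-fold change and an unadjusted P below 0.05. The rule took 404 of 13899 tested genes (2.91%), with 106 higher in juveniles (0.763%) and 298 lower (2.14%). The number with an unadjusted P under 0.05 was 593 (4.27%). With Benjamini-Hochberg adjustment 0 genes passed 0.05 in edgeR's quasi-likelihood test, where the lowest adjusted p was 0.998, while DESeq2 gave 46 and edgeR's exact test 27. The calls are therefore a ranked description of these 6 libraries. In 1217 genes (8.76%) the values of juveniles lay wholly above (608 genes, 4.37%) or wholly below (609 genes, 4.38%) those of adults. Among the DEGs, 98 of the 106 higher genes (0.705% of the tested genes) and 151 of the 298 lower genes (1.09%) had groups that did not overlap. An exact two-sided permutation test of these 6 libraries cannot give a p below 0.1. Of the 298 DEGs lower in juveniles, 217 (72.8%) had their highest level in MHLBA 1, against 29.0% of all tested genes, and in 119 of them MHLBA 1 exceeded both other adults by more than 5-fold. MHLBA 2 was highest for 56 (18.8%) and MHLBA 3 for 25 (8.39%), against 17.0% and 15.1% of all tested genes. The shares of all tested genes include genes highest in a juvenile, which none of these DEGs was. They are therefore not a like baseline, and the contrast for MHLBA 1 is overstated. Of all tested genes, 4037 were highest in MHLBA 1, 2364 in MHLBA 2 and 2095 in MHLBA 3. Set against genes highest in an adult, the DEGs were still highest in MHLBA 1 more often. They were highest in MHLBA 2 and in MHLBA 3 less often. Without MHLBA 1, 396 of 14314 genes were DEGs (2.77%), 162 higher (1.13%) and 234 lower (1.63%) in juveniles, and 178 of these were among the 404. The log2 fold change was then positive for 49.1% of the genes. Their lowest adjusted p was 0.629 in edgeR's test. The median log2 fold change (juvenile minus adult) over all genes was -0.027, and 46.7% of the genes had a positive one. Library sizes without TMM factors moved this median to 0.15, and 40.9% of the DEGs were then higher in juveniles, against 26.2% with TMM. With limma on log2(RPKM + 1) and log2(RPKM + 0.1) the share was 59.7% and 61.4%.

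Genes are named in the following by their order of P among the DEGs that had a gene symbol and did not overlap between the groups. The 10 higher in juveniles were FABP5, RAD18, CALN1, LEF1, LSAMP, TP63, PTX3, KRT1, TRAF3IP3 and LRFN5. A pair of genes without a symbol had P within the same range. ENSECAG00000002197, described in the deposited table as cytochrome P450 2F2-like, had 67.2, 56.04 and 73.8 CPM in juveniles and 19.03, 31.03 and 15.9 CPM in adults (log2 fold change 1.57 ± 0.29), and ENSECAG00000001291 had 1.92, 1.82 and 0.923 and 0.436, 0.139 and 0.212 CPM (log2 fold change 2.62 ± 0.65). Neither overlapped between the groups. FABP5, which carries fatty acids in epithelial cells, macrophages and endothelium, had 356, 492 and 438 CPM in juveniles and 137, 163 and 154 CPM in adults. Every juvenile stood above every adult, and the mean was 2.83-fold higher. The log2 fold change was 1.50 ± 0.22 (SE, n = 3 and 3, adjusted p = 0.998 in edgeR's test) and 1.42 ± 0.23 without MHLBA 1. RAD18, a ubiquitin ligase that lets replication pass damaged DNA, had 72.4, 55.7 and 65 CPM in juveniles and 28.3, 19.7 and 28.01 CPM in adults. The groups were again apart, with a log2 fold change of 1.35 ± 0.23 and 1.42 ± 0.24 without MHLBA 1. PTX3, a soluble pattern recognition protein of innate immunity, had 926, 516 and 406 CPM in juveniles and 131, 269 and 137 CPM in adults. It was highest in MHLBJ 1, and its log2 fold change was 1.78 ± 0.43. FABP5 and RAD18 were DEGs in all 15 other fits and PTX3 in 14, while at an adjusted p under 0.05 in edgeR's quasi-likelihood test none of them was called.

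Of the other 7 named genes, 3 code for proteins of nerve cell surfaces or signalling. CALN1, a calcium sensor, had 40.7, 58.7 and 46.1 CPM in juveniles and 20.8, 24.8 and 21.6 CPM in adults (log2 fold change 1.11 ± 0.22). LSAMP, a neuronal adhesion protein, had 13.7, 10.9 and 9.37 and 5.24, 3.51 and 3.89 CPM (log2 fold change 1.43 ± 0.32), and LRFN5, a synaptic adhesion protein, 3.33, 6.98 and 2.54 and 0.436, 0.870 and 0.0707 CPM (log2 fold change 3.13 ± 0.82). In all 3 the lowest juvenile stood above the highest adult. TRAF3IP3, an adaptor of lymphocytes, had 36.1, 38 and 35.9 CPM in juveniles, a narrow range, and 19.9, 19.2 and 10.3 CPM in adults (log2 fold change 1.16 ± 0.29). The epithelial genes TP63, the transcription factor of basal epithelial cells, and KRT1, a keratin of the upper epidermis, were scarce. TP63 had 2.22, 1.20 and 3.64 CPM in juveniles and 0.436, 0.417 and 0.424 CPM in adults (log2 fold change 2.45 ± 0.57). KRT1 had 0.740, 1.16 and 4.29 CPM in juveniles and at most 3 reads in each adult, and the ratio of its library-scaled reads, juvenile to adult, was 24.3 (95% exact interval 10.1 to 76.1), an interval that covers counting error only. Both were highest in MHLBJ 3, the library with KRT5 and KRT14, and both remained DEGs when that library was left out. LEF1, the 10th gene, is described with the T cell genes.

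**Figure D2:**
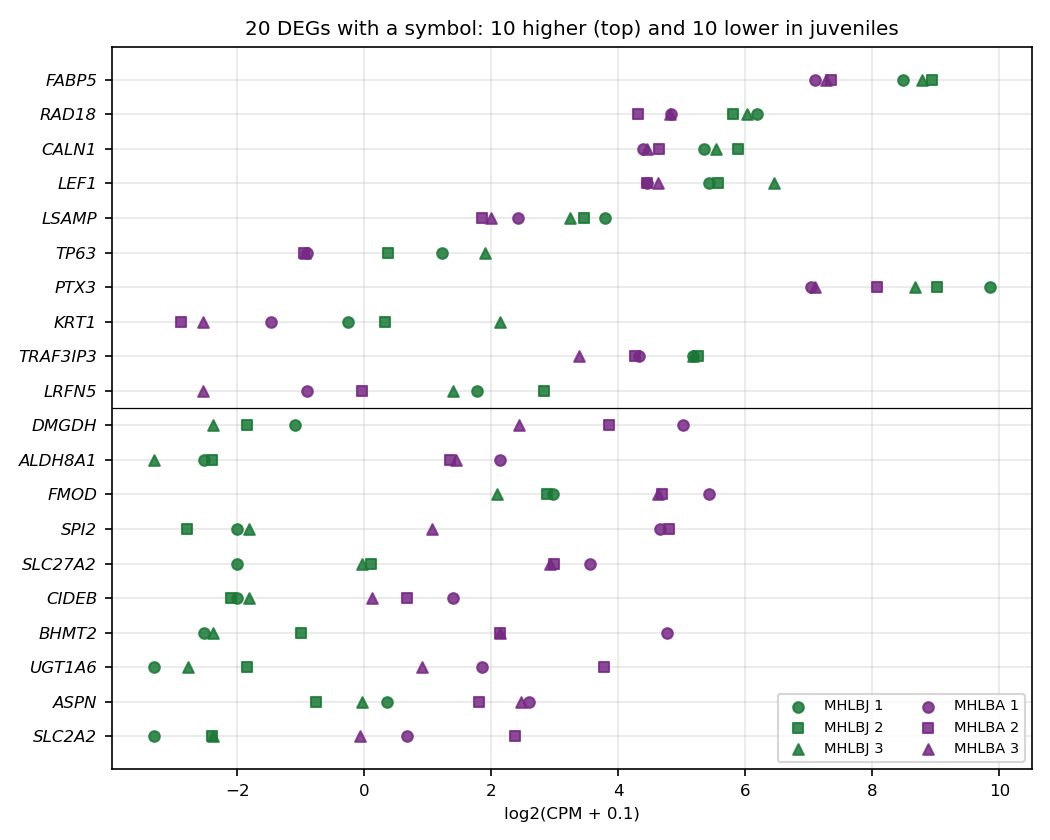
Level of the 20 DEGs of lowest P among those with a gene symbol whose juvenile and adult libraries do not overlap, as log2(CPM + 0.1), 10 higher in juveniles above the line and 10 lower below it. Juveniles are green and adults purple. The upper genes differ by a log2 fold change of 1.11 to 4.22 and the lower ones by -2.28 to -7.14.

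The 10 named DEGs lower in juveniles were DMGDH, ALDH8A1, FMOD, SPI2, SLC27A2, CIDEB, BHMT2, UGT1A6, ASPN and SLC2A2, of which all but FMOD and ASPN were below 1 CPM in every juvenile. DMGDH, a mitochondrial enzyme of choline breakdown, had 0.370, 0.178 and 0.0923 CPM in juveniles and 32.2, 14.4 and 5.30 CPM in adults. All 3 adults stood above all 3 juveniles, with a log2 fold change of -6.38 ± 0.88 (adjusted p = 0.998 in edgeR's test) and -5.59 ± 0.69 without MHLBA 1. BHMT2, a methyltransferase of methionine metabolism, had 0.0740, 0.400 and 0.0923 CPM in juveniles and 27.1, 4.31 and 4.31 CPM in adults (log2 fold change -5.85 ± 1.09). SLC27A2, which imports and activates very long chain fatty acids, had 0.148, 0.978 and 0.877 and 11.7, 7.86 and 7.50 CPM (log2 fold change -3.70 ± 0.65). UGT1A6, an enzyme that adds glucuronic acid to drugs and phenols, had 0, 0.178 and 0.0461 and 3.49, 13.5 and 1.77 CPM (log2 fold change -6.14 ± 1.16). In this group the highest adult was MHLBA 1 for DMGDH, BHMT2 and SLC27A2 and MHLBA 2 for UGT1A6. The family of UGT1A genes shares exons, so its reads may be split between members.

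The other lower genes of this rank were ALDH8A1, CIDEB, SLC2A2 and SPI2 and a pair of matrix proteins. ALDH8A1, an aldehyde dehydrogenase of tryptophan and retinoid metabolism, had at most 3 reads in each juvenile and 4.28, 2.44 and 2.62 CPM in adults. The ratio of its library-scaled reads, adult to juvenile, was 55.2 (95% exact interval 18.5 to 271), an interval that covers counting error only. SLC2A2, the glucose transporter of hepatocytes, islets and kidney tubules, also had at most 3 reads in each juvenile, and 1.48, 5.08 and 0.849 CPM in adults, a ratio of 46.4 (95% exact interval 17.8 to 172) with the same limit. CIDEB, a lipid droplet protein of hepatocytes, had 0.148, 0.133 and 0.185 CPM in juveniles and 2.53, 1.50 and 0.990 CPM in adults (log2 fold change -3.36 ± 0.61). SPI2, a serine protease inhibitor, had 0.148, 0.0444 and 0.185 and 25.1, 27.8 and 1.98 CPM (log2 fold change -7.14 ± 1.17). These genes were near 0 in juveniles and present in all 3 adults, each of which carried markers of pancreas, liver or kidney. Their choice asked for groups without overlap, so a higher level in each adult was fixed by it. Of the 298 DEGs lower in juveniles, 151 had such groups. The 10 named lower genes were DEGs with every library left out in turn, which their choice by lowest P and groups without overlap favours. The part of the other organs in these calls was not tested.

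The lists of those organs contained many DEGs, as their choice fixed. Of 17 tested hepatocyte genes, 14 were DEGs lower in juveniles, and 22 of 24 without MHLBA 1. Their log2 fold changes had a median of -6.45. Without MHLBA 2, 5 of 17 were DEGs, 7 had a positive log2 fold change and the median was -0.60. Of 9 tested pancreas acinar genes, 8 were DEGs lower in juveniles and 0 of 9 without MHLBA 1, where the median moved from -13.31 to -0.0076. With any juvenile library left out, 0 of them were DEGs too, with a median of -12.63 to -13.87. The 2 tested islet genes, the 6 tested kidney genes and the 4 tested intestinal genes gave 0 DEGs. The 6 tested keratinocyte genes gave 2, KRT1 and TP63. In muscle, 1 of 23 tested genes was a DEG, 9 of 23 without MHLBA 3 (median 2.79) and 0 of 23 without MHLBJ 1 (median -1.42). MYH1, a fast myosin heavy chain, had 48.2, 2.18 and 0.323 CPM in juveniles and 0.0873, 0.0696 and 1.34 CPM in adults, so that MHLBJ 1 set its log2 fold change of 5.12 ± 1.97, and it was 1.02 to 7.69 over the alternatives. The 2 other muscle genes of highest level, TTN with 89.8, 20.98 and 13.1 and 5.50, 8.84 and 90.7 CPM and MYH2 with 142, 8.58 and 2.45 and 0.524, 0.209 and 72.4 CPM in juveniles and adults, had high values in MHLBJ 1 and MHLBA 3 and were not DEGs.

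Cartilage matrix genes mostly had lower values in juveniles, and much of that difference came from MHLBA 1. Of 16 tested genes, 15 had a negative log2 fold change, 6 were DEGs lower in juveniles and 0 were DEGs higher. The list's median was -1.85 with all libraries. Without MHLBA 1 it was -0.42, with 10 of 16 negative and 3 DEGs. Those 3 were COMP, ACAN and HAPLN1. COMP, a pentameric matrix protein of cartilage and tendon, had 3.18, 5.24 and 6.69 CPM in juveniles and 166, 7.34 and 102 CPM in adults, with a log2 fold change of -4.18 ± 1.01 and -3.44 ± 0.93 without MHLBA 1. MHLBA 2 exceeded the highest juvenile only slightly. ACAN, the large proteoglycan aggrecan, had 4.51, 0.622 and 3.74 and 142, 8.49 and 17.9 CPM, with -4.26 ± 1.23 and -2.18 ± 0.74 without MHLBA 1 on the log2 scale. HAPLN1, the link protein that ties aggrecan to hyaluronan, had 0.592, 0.356 and 0.507 and 39.2, 1.01 and 3.11 CPM, with -4.89 ± 1.39 and -2.08 ± 0.69. All 3 were above the juveniles in every adult.

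The other 3 cartilage calls rested on MHLBA 1. COL2A1 had a log2 fold change of -6.78 ± 2.39 with that library and -0.36 ± 0.81 without it. SOX9, the transcription factor of chondrocytes, had 0.666, 0.578 and 0.969 CPM in juveniles and 23.7, 0.800 and 1.27 CPM in adults, and its log2 fold change moved from -3.51 ± 1.31 to -0.48 ± 0.61. COL9A2, a chain of the type IX collagen on cartilage fibrils, had 0.222, 1.11 and 0.923 and 151, 0.557 and 0.212 CPM, and the change turned from -6.00 ± 2.31 to 0.92 ± 0.88. COL10A1, the collagen of enlarged growth plate chondrocytes, did not pass the filter and stood at 84.9 CPM in MHLBA 1 and below 1 CPM elsewhere. MHLBA 1 thus combined cartilage and pancreas transcripts. COL11A2, the tested cartilage gene of highest mean CPM, had 148, 189 and 157 CPM in juveniles and 371, 265 and 136 CPM in adults and was not a DEG. Of 17 growth plate signals, 0 were DEGs and 8 had a positive log2 fold change. PTH1R, the parathyroid hormone receptor, had 179, 278 and 196 CPM in juveniles and 111, 210.4 and 120.3 in adults, and NPR2, the receptor of C-type natriuretic peptide, 88.6, 85.7 and 92.2 and 79.6, 100.2 and 96.9 CPM, with overlapping groups in both. Without MHLBA 1, FGF18 and PTHLH of that list were DEGs lower in juveniles.

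Of the small leucine-rich proteoglycans, which bind and space collagen fibrils, 3 of 12 tested were DEGs, all lower in juveniles and all kept without MHLBA 1. This list was added after FMOD and ASPN had been seen. FMOD, fibromodulin, had 7.77, 7.24 and 4.15 CPM in juveniles and 42.9, 25.7 and 24.6 CPM in adults. The lowest adult stood more than 3-fold above the highest juvenile, and the log2 fold change was -2.28 ± 0.36 (adjusted p = 0.998 in edgeR's test) and -1.99 ± 0.32 without MHLBA 1. ASPN, asporin, had 1.18, 0.489 and 0.877 and 5.94, 3.37 and 5.45 CPM, with -2.54 ± 0.50 on the log2 scale. PRELP had 8.29, 6.84 and 4.80 and 14.5, 9.67 and 17.3 CPM, with -1.06 ± 0.35. The more abundant members DCN, LUM and BGN were not DEGs, with log2 fold changes of -0.37 ± 0.41, 0.023 ± 0.36 and 0.37 ± 0.54. The list's median was -0.55.

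**Figure D3:**
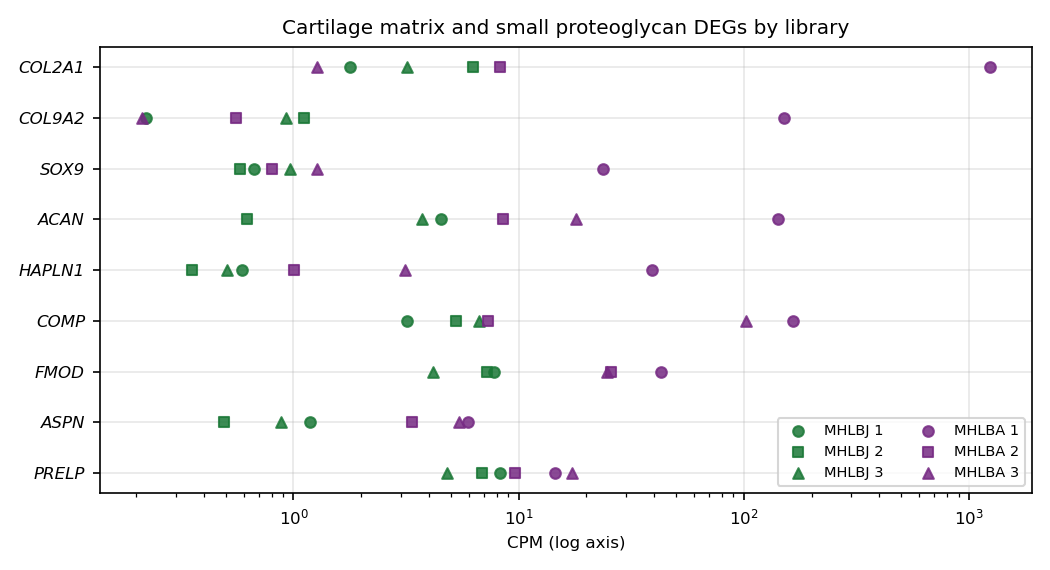
CPM (log axis) of the 6 cartilage matrix DEGs and of the 3 small leucine-rich proteoglycan DEGs in the 6 libraries, juveniles in green and adults in purple. COL2A1, COL9A2 and SOX9 are high in MHLBA 1 alone, while FMOD, ASPN and PRELP are higher in each of the 3 adults than in each juvenile.

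Genes of T and natural killer (NK) cells differed in 1 direction, with higher values in juveniles. All 18 tested genes had a positive log2 fold change, against 46.7% of all tested genes. Of these 18, 4 were DEGs higher in juveniles, against 0.763% of all tested genes. The summed level of all 20 listed genes was 216, 233 and 343 CPM in juveniles and 137, 145 and 132 CPM in adults, so the groups did not overlap. The DEGs were CD8B, LEF1, CD4 and LCK. CD8B, a chain of the co-receptor of cytotoxic T cells, had 6.44, 6.0 and 7.66 CPM in juveniles and 1.83, 3.44 and 2.26 CPM in adults, a log2 fold change of 1.40 ± 0.38. CD4, the co-receptor of helper T cells, had 13.99, 11.8 and 32.3 and 7.94, 8.28 and 6.58 CPM (1.35 ± 0.43 on the log2 scale). LCK, the kinase that starts signalling from the T cell receptor, had 12.3, 14.6 and 16.5 and 5.67, 9.67 and 5.73 CPM (1.04 ± 0.32). LEF1, a transcription factor of the WNT pathway and of early T cells, had 42.8, 47.2 and 87.1 and 21.7, 21.8 and 24.5 CPM (1.38 ± 0.31, adjusted p = 0.998 in edgeR's test). None of these 4 overlapped between the groups, which also held for 98 of the 106 DEGs higher in juveniles and so adds little. The constant chain TRAC and CD3E, parts of the receptor itself, had log2 fold changes of 0.92 ± 0.25 and 0.84 ± 0.26, under the 2-fold threshold.

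The list's median log2 fold change was 0.80, against -0.027 over all genes, and 0.79 without MHLBA 1, when 16 of 18 were positive and CD4, CD8B, LEF1 and TCF7 were DEGs. Cytotoxic granule genes had fold changes well within their errors. PRF1 had a log2 fold change of 0.11 ± 0.67 and GZMB of 0.15 ± 0.62. MHLBJ 3 was the highest library for CD4, CD8B, LCK, LEF1, TCF7 and TRAC. It was also the library in which the genes of antigen receptor recombination were found, with RAG1 at 0.518, 0.133 and 3.51 CPM, RAG2 at 0, 0 and 6.78 CPM and DNTT at 0.518, 0.267 and 13.9 CPM in juveniles, and at most 0.778 CPM of each in adults. These 3 genes were chosen after their values were seen. With MHLBJ 3 left out, 17 of 18 T and NK cell genes had a positive log2 fold change, the median was 0.68 and 1 of them, CD8B, was a DEG.

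**Figure D4:**
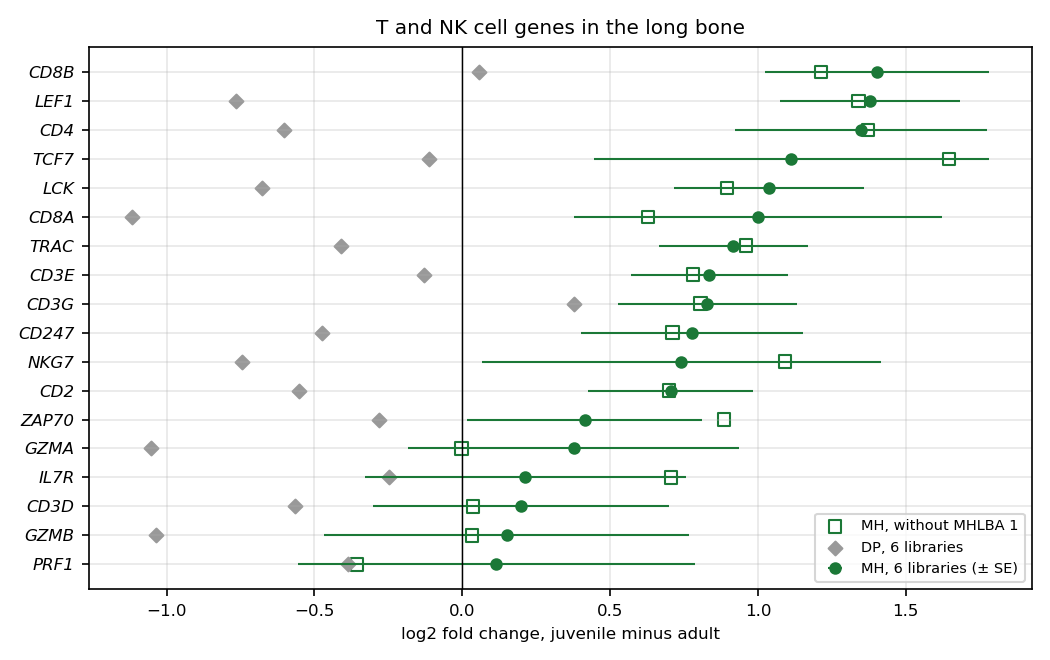
Log2 fold change (juvenile minus adult) of the 18 tested T and NK cell genes, for MHs with all 6 libraries (filled circles, bars are ± SE), for MHs without MHLBA 1 (open squares) and for DPs (grey diamonds). In MHs with all libraries the 18 genes lie between 0.11 and 1.40, and in DPs 2 of 18 are above 0.

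Other blood and immune lists contained 0 DEGs with all libraries. All 12 macrophage genes had a positive log2 fold change (median 0.71). Their sum was 769, 1143 and 365 CPM in juveniles and 329, 805 and 372 CPM in adults, so the groups overlapped, and 9 of 12 were positive without MHLBA 1 (median 0.52) or without MHLBJ 2 (median 0.17). Without MHLBA 2, 4 of 12 were DEGs higher in juveniles. CD163, the haemoglobin scavenger receptor of macrophages, had 166, 430.2 and 92.4 CPM in juveniles and 121, 171 and 115 CPM in adults, and CD68 had 261, 228 and 81.8 and 74.7, 307 and 43 CPM. Of 11 tested B cell genes, 9 were positive (median 0.73). EBF1 had 34.3, 21.7 and 32.2 and 7.42, 19.5 and 30.1 CPM and BLNK 11.2, 13.1 and 6.78 and 21.04, 6.78 and 8.35 CPM, with overlapping groups. Without MHLBA 1, MS4A1 and RAG1 were DEGs higher in juveniles. Of 14 neutrophil genes, 10 were positive (median 0.46), with CYBA at 142, 208 and 114 and 114, 169.6 and 69.3 CPM, and MPO and PADI4 were DEGs higher in juveniles without MHLBA 1. Without MHLBJ 2, 5 of 14 neutrophil genes were positive and the median was -0.35. The 10 tested erythroid genes had a median of 0.42, and all 17 found summed to 82.3, 80.1 and 81.8 CPM in juveniles and 48.4, 84.7 and 82.04 CPM in adults. FECH had 28.3, 24.4 and 22.1 and 15.6, 31.3 and 31.8 CPM and TFRC 24.3, 25.1 and 17.4 and 7.86, 24.7 and 12.7 CPM, again with overlap. Of 5 tested platelet genes 1 was positive, and THBS1 had 128, 144 and 233 and 202, 323 and 119.7 CPM. Of 20 interferon response genes, 13 were positive, with IFIT5 at 20.3, 28.6 and 21.9 and 17.7, 67.6 and 35.1 CPM. Without MHLBA 1, 7 of 20 were positive, the median turned from 0.13 to -0.17 and IFIT5 was a DEG lower in juveniles.

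Bone, fat and vessel genes gave 1 DEG between the stages with all libraries. Of 25 tested osteoblast and osteocyte genes, 22 had a positive log2 fold change and 0 were DEGs (median 0.32). The sum over the 26 genes found was 19209, 44748 and 15503 CPM in juveniles and 11843, 38005 and 9040.3 CPM in adults. It was high in MHLBJ 2 and MHLBA 2 and the groups overlapped. SPP1 had 7424, 17700.0 and 4036 CPM in juveniles and 5095, 12868 and 2440.2 CPM in adults, and COL1A2, a chain of the main bone collagen, 4771, 12681 and 4705 and 2325, 14693 and 2249 CPM, again highest in these 2 libraries. Without MHLBA 1 the count of positive genes was 15 of 25 and without MHLBA 2 it was 24 of 25 with 6 DEGs and a median of 1.07. The 16 osteoclast genes had a median of -0.0055 and 0 DEGs, while without MHLBA 2 the median was 0.94, with 15 of 16 positive and 3 DEGs higher in juveniles. CTSK had 458, 854 and 304 and 240.2, 1283 and 99.4 CPM and the acid phosphatase ACP5 351, 475 and 177 and 185, 950.3 and 53.3 CPM. Of 17 marrow adipocyte genes 14 were positive with all libraries and 5 without MHLBA 1, and the median turned from 0.10 to -0.33. Without MHLBA 3 all 17 were positive, with a median of 0.76 and 2 DEGs. FABP4 had 6418, 5846 and 4859 and 818, 4581 and 5625 CPM and CD36 648, 426 and 529.6 and 96.1, 628 and 849 CPM, both lowest in MHLBA 1.

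The DEG was STAB2, a scavenger receptor of sinusoidal endothelium, with 5.70, 2.18 and 3.46 CPM in juveniles and 8.03, 9.25 and 9.48 CPM in adults. The groups did not overlap, and the log2 fold change was -1.25 ± 0.41 and -1.33 ± 0.43 without MHLBA 1. STAB2 was no longer called in 5 of 15 other fits, among them without MHLBJ 2 and without MHLBJ 3. Over these 15 fits its log2 fold change was -1.66 to -0.41. The 17 other endothelial genes were not DEGs, with PECAM1 at 798, 744 and 769.9 and 288, 933 and 1099.7 CPM, PLVAP at 392, 650.4 and 329 and 429.5, 448 and 347 CPM and VWF at 525, 525 and 626 and 282, 641 and 857 CPM. For PECAM1 and VWF the adults spanned the whole range of the juveniles, with MHLBA 1 lowest. The 14 smooth muscle genes had a median of -0.15 and 0 DEGs, and without MHLBA 2 a median of 0.41 and 2 DEGs higher in juveniles. LMOD1 had 733, 461 and 331 and 151, 753 and 244 CPM and MYH11 188, 84.1 and 307 and 162, 366 and 125 CPM. The 9 marrow stromal genes had a median of 0.095 and 0 DEGs. PDGFRA had 124, 214 and 126 and 51.8, 230.4 and 139 CPM and NT5E 166, 213 and 152 and 126, 167 and 89.8 CPM. Of the pituitary list, used as a check on mixed tissue, 3 genes were tested with 0 DEGs. PITX1 had 12.8, 14.1 and 10.2 and 4.80, 12.6 and 7.07 CPM, and the granule protein CHGA had 0.0740, 1.51 and 4.29 and 126, 0.626 and 0.0707 CPM, high in MHLBA 1, which also held islet transcripts.

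Growth signalling lists gave 2 DEGs, both of the WNT pathway. GHR, the growth hormone receptor, had 344, 298 and 329 CPM in juveniles and 136, 273 and 287 CPM in adults. The highest adult lay just under the lowest juvenile, and the log2 fold change was 0.48 ± 0.31 (adjusted p = 0.998 in edgeR's test) and 0.20 ± 0.19 without MHLBA 1. JAK2, the kinase bound to GHR, had 165, 161 and 106 and 89.3, 203 and 153 CPM. Of 23 GH and IGF genes 0 were DEGs and 9 were positive (median -0.043), and IGF2BP3 was a DEG higher in juveniles without MHLBA 1. Of 39 WNT pathway genes 2 were DEGs. LEF1 was higher, and FRZB, a secreted WNT inhibitor of cartilage, was lower, with 4.74, 0.755 and 4.52 CPM in juveniles and 24.3, 9.36 and 6.15 CPM in adults (-1.99 ± 0.78 on the log2 scale, -1.24 ± 0.70 without MHLBA 1). RSPO3, which strengthens WNT signalling, had 268, 368 and 329 and 152, 194 and 243 CPM without overlap (log2 fold change 0.71 ± 0.25), and CTNNB1 812, 689 and 583 and 406, 723 and 764 CPM. The WNT median was -0.069. Of 33 MAPK genes 0 were DEGs (median -0.057). MRAS had 264, 249.7 and 269 and 87.8, 252 and 319.8 CPM and MAP3K5 245, 133 and 213 and 232, 179 and 219 CPM.

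Among 36 tested collagen genes the DEGs were COL2A1, COL9A2 and COL4A5, all lower in juveniles. COL4A5, a basement membrane chain, had 1.04, 0.489 and 1.52 CPM in juveniles and 13.3, 1.50 and 2.48 CPM in adults, and its log2 fold change moved from -2.48 ± 0.92 to -0.97 ± 0.64 without MHLBA 1, so that each of these 3 calls was lost without that library. COL14A1 was then a DEG lower in juveniles. COL4A1 had 828, 642 and 771 and 345, 824 and 989 CPM. Of 18 genes of matrix metalloproteinases (MMPs) and their TIMP inhibitors, MMP16 was a DEG higher and MMP3 a DEG lower in juveniles (median 0.11). Without MHLBA 2, 7 were DEGs higher and 2 lower, 14 of 18 were positive and the median was 0.78. MMP16, a membrane-bound protease, had 100.4, 246 and 183 CPM in juveniles and 54.8, 92.3 and 82.4 CPM in adults without overlap (1.21 ± 0.37 on the log2 scale). MMP3, stromelysin, had 0.370, 0.356 and 1.25 and 0.262, 0.557 and 51.3 CPM, so its log2 fold change of -4.68 ± 1.91 rested on MHLBA 3 and was 0.64 without it. The abundant MMP13 (669.8, 1026 and 279 and 232, 952 and 38.5 CPM) and MMP9 (300.4, 416 and 178 and 147, 726 and 44.3 CPM) overlapped between the groups.

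Cell state lists gave 3 DEGs. Of 28 cell cycle genes 21 had a positive log2 fold change and 0 were DEGs (median 0.18), with MCM7 at 121, 151 and 111 and 84.7, 159.6 and 96.9 CPM and RRM1 at 86.9, 74.97 and 91.4 and 69.1, 73.1 and 79.4 CPM. Without MHLBJ 2 the count was 13 of 28 and the median -0.043. Of 18 immediate early genes, EGR3 was a DEG higher in juveniles, with 28.1, 12.3 and 11.4 CPM in juveniles and 7.68, 6.40 and 11.1 CPM in adults (1.04 ± 0.43 on the log2 scale). It was no longer called in 9 of 15 other fits, among them without MHLBA 1 (0.97 ± 0.49) and without MHLBJ 1. EGR1 had 352, 136 and 196 and 146, 148 and 127 CPM and KLF2 306, 325 and 268 and 258, 343 and 256 CPM. Heat shock and ER stress genes were high in MHLBA 1, where the 16 genes summed to 22218 CPM, against 7479.7 and 6818 CPM in the other adults and 7232, 7405 and 8681 CPM in juveniles. The DEGs XBP1, a transcription factor of secretory cells, with 116, 117 and 68.8 and 632, 171 and 103 CPM, and SDF2L1, an ER chaperone partner, with 3.70, 3.87 and 2.21 and 15.6, 7.86 and 4.95 CPM, were lower in juveniles. Without MHLBA 1 neither was called, with log2 fold changes of -0.46 ± 0.31 for XBP1 and -0.99 ± 0.41 for SDF2L1, the latter just under the 2-fold threshold and without overlap of the groups. HSP90AA1 had 3759, 4349 and 4722 and 13729, 3487 and 3730.3 CPM and HSPA8 1793, 1764 and 2529 and 5405, 2094 and 1618 CPM. The 13 mitochondrially encoded genes had a median of -0.15 (0.038 without MHLBJ 1) and 0 DEGs, with MT-CO1 at 13914, 20639 and 13304 and 26163, 20312 and 20574 CPM and COX3 at 3408, 5786 and 2939.9 and 5031, 4428 and 4579.8 CPM.

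Whether the stage difference of MHs was also that of DPs was asked with the interaction term over the 12 long bone libraries. Of 14735 genes tested, 615 (4.17%, with 1.63% higher and 2.54% lower in the difference of MHs minus DPs) had an unadjusted P under 0.05 and a difference of log2 fold changes over 1, and 0 had an adjusted p under 0.05 (lowest 0.971 in edgeR's test, 660 genes (4.48%) with an unadjusted P under 0.05, and 14 genes with DESeq2). With DPLBJ 1 left out the count was 1137, and 2 genes passed an adjusted p of 0.05 in edgeR's test. With all 12 libraries, no gene is shown to differ between the breeds after adjustment in that test. LEF1 had 32.5, 33.2 and 51.1 CPM in juvenile and 72.1, 38.3 and 88.2 CPM in adult DPs, a log2 fold change of -0.77 ± 0.39, and its interaction was 2.16 ± 0.51 (adjusted p = 0.971 in edgeR's test). FABP5 had 347, 395 and 254 and 402, 226 and 259.6 CPM in DPs (0.17 ± 0.36), with an interaction of 1.35 ± 0.40 (adjusted p = 0.971 in edgeR's test). In both genes the MH juveniles stood apart from the MH adults while the DP groups overlapped. Both were named because their MH groups did not overlap, so the MH part of this contrast was fixed by their choice. That choice also favours a large interaction. PTX3 had 31.5, 449 and 333 CPM in juvenile and 977, 180.3 and 981 CPM in adult DPs, an opposite log2 fold change of -1.39 ± 0.94. CD4 had an interaction of 1.97 ± 0.60 (adjusted p = 0.971 in edgeR's test), and GHR of 0.67 ± 0.70.

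In DPs 2 of 18 T and NK cell genes had a positive log2 fold change (median -0.51) and 1 of 12 macrophage genes (median -0.78). In DPs 436 of 13866 tested genes were DEGs (3.14%), 219 higher (1.58%) and 217 lower (1.56%) in juveniles. All 28 cell cycle genes were positive there (median 1.45, 7 DEGs), against the 21 of 28 in MHs. All 16 tested erythroid genes (median 5.76, 12 DEGs) and all 16 tested neutrophil genes (median 1.22, 0 DEGs) were positive in DPs too. Whether the cell cycle values follow the blood-forming cells of these pieces was not tested. Differences between the breeds in these counts were not tested. FMOD had 32.8, 111 and 374 CPM in juvenile and 291, 186 and 490.2 CPM in adult DPs (-0.90 ± 0.80) and COMP 37.7, 283 and 1225 and 1311, 242 and 2731 CPM (-1.47 ± 1.19), the same sign as in MHs. The genes DMGDH, ALDH8A1, SLC27A2, CIDEB, BHMT2, UGT1A6 and SLC2A2 did not pass the filter in DPs, where none reached 1 CPM in any library. SPI2 was present there, with 0, 21.9 and 67.0 CPM in juvenile and 189, 0.726 and 60.5 CPM in adult DPs. Its DP groups overlapped (-1.49 ± 1.84 on the log2 scale). Among 13313 genes tested in both breeds, 18 were DEGs of both, 5.66% of the 318 MH DEGs and 4.48% of the 402 DP DEGs. Over all genes tested in a breed, 3.14% were DEGs in DPs and 2.91% in MHs. Of the 18, 9 had the same direction and the others the opposite one, so no common direction was seen. ASPN and MMP3 were among these 9, but each rested on a single library in 1 breed. ASPN had 2.37, 7.25 and 0.775 CPM in juvenile and 1.90, 419 and 0.301 CPM in adult DPs, high in DPLBA 2 alone. The MH call of MMP3 rested on MHLBA 3.

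The list of DEGs depended on single libraries. Of the 404 genes, 85 were DEGs with all libraries and with each of the 6 left out in turn, 24 higher (0.173% of tested genes) and 61 lower (0.439%) in juveniles, 0.612% in all. Of the 20 named genes of lowest P, 17 were among these 85, and the others were CALN1, LEF1 and TRAF3IP3. These 20 were chosen in the same libraries by lowest P and by groups without overlap, which favours such a count. Leaving out MHLBA 2 or MHLBA 3 raised the number of DEGs to 703 and 778, of which 289 and 316 were among the 404. In both fits MHLBA 1 made up one of 2 adult libraries. Without MHLBJ 2 the number fell to 265. Of the 38 DEGs named by rule, 13 were called with the same direction in all 15 other fits (the adjusted threshold, which called 0 genes in edgeR's quasi-likelihood test, is not among these), and 10 were no longer called or turned their sign without MHLBA 1.

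**Figure D5:**
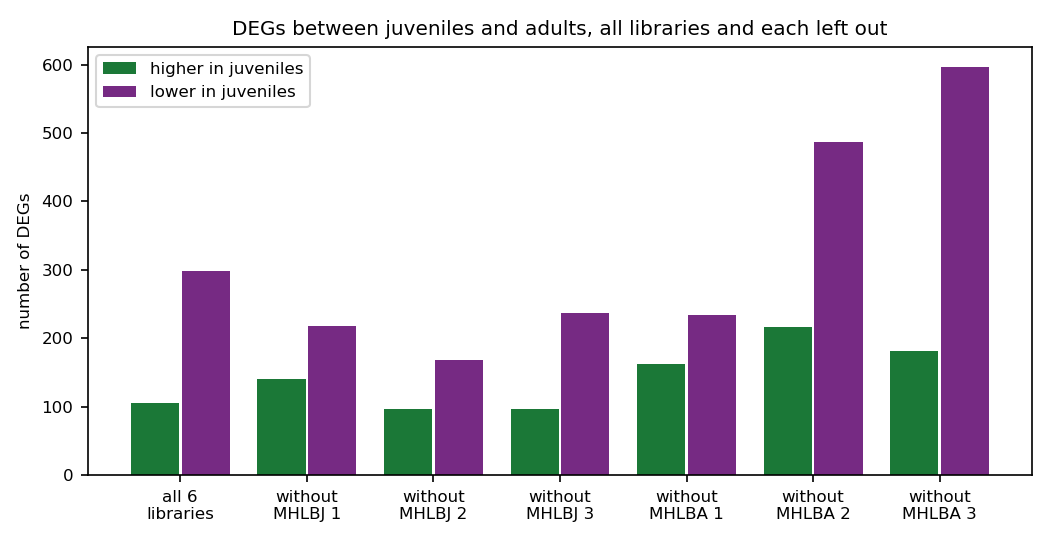
Number of DEGs higher (green) and lower (purple) in juveniles with all 6 libraries and with each library left out. The lower genes number 298 with all libraries, 487 without MHLBA 2 and 596 without MHLBA 3, and the higher genes range from 96 to 216.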

How the data were processed

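Per the labels, RNA of the long bone was extracted with hot phenol, depleted of ribosomal RNA and made into directional paired-end libraries. The study's methods name single-end sequencing, and which holds was not settled. They give removal of short reads, mapping to EquCab 3.0 and Salmon, while the submitters' processing notes list bcl2fastq, TopHat2 and edgeR. The program that counted the reads and its strand setting are not given in the sources used here, so overlapping and antisense genes are uncertain. The authors deposited raw read counts per gene (24232 genes) and RPKM per gene (24248 genes, the 16 others at 0 in the 6 libraries). No column held a sample outside the labels. Of the genes, 8077 had no symbol and were named by identifier, and 465 had a name used more than once.

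The counts of the 6 libraries were filtered with edgeR's filterByExpr (minimum count 10), scaled with TMM and tested with edgeR's quasi-likelihood test (glmQLFit and glmQLFTest), juvenile minus adult. Errors are SE of the log2 fold change with n = 3 and 3. The difference between breeds was the interaction term of the 12 long bone libraries. Tools were R 4.3.3, edgeR 4.0.16, limma 3.58.1 and DESeq2 1.42.0. Each library is 1 horse, so p-values measure the spread between these horses, and the replicate number of a juvenile and an adult marks different horses. Genes were named by 3 rules: the 10 DEGs with a gene symbol of lowest P in each direction whose groups did not overlap, every listed gene that was a DEG, and the 2 tested genes of highest mean CPM in each list, with GHR in any case. A few genes that these rules or the marker lists took are not reported here. The members and lists were chosen with earlier results of these data known, and 7 lists (6 organ lists and the small leucine-rich proteoglycans) were added after the levels of these libraries had been seen. The alternatives were library sizes without TMM, DESeq2, no filter, edgeR's exact test, limma on log2(RPKM + 1) and log2(RPKM + 0.1), all 12 libraries together, the replicate number as a block, an adjusted threshold and each library left out, and, chosen after seeing the data, limma voom with a quality weight per library. Scripts were tested on simulated data.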

Additional observations from a re-analysis of the deposited data

How the results depend on the processing

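The number of DEGs between juvenile and adult MHs was 404 and ranged from 265 to 778 with 1 library left out. It was 874 with no low-count filter, where 21908 genes were tested, 139 with limma on log2(RPKM + 1), and 0 at an adjusted p under 0.05 in edgeR's quasi-likelihood test (593 at an unadjusted P under 0.05). It was within 1.5 times of 404 without TMM factors (372), with DESeq2 (456), with edgeR's exact test (551), with limma on log2(RPKM + 0.1) (303), with all 12 libraries together (512) and with quality weights (325), where MHLBA 1 received a weight of 0.293 and the others 0.927 to 2.21. The number of genes in the interaction was 615, and 967 with no filter, 0 at an adjusted p under 0.05, 796 with DESeq2, 486 without TMM factors and 406 to 1137 with 1 library left out, lowest without DPLBA 3 and highest without DPLBJ 1. With 1 library left out, the log2 fold change of COL9A2 ranged from -6.57 to 0.92, positive without MHLBA 1, and that of MMP3 from -5.55 to 0.64, positive without MHLBA 3. With quality weights COL9A2 turned to 0.18. The cause was not tested. Over the 38 called genes and 15 other fits, the adjusted threshold aside, 468 values kept their direction and call, 99 kept their direction without the call and 3 turned. The list medians moved beyond their spread in 34 of 396 values.

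The replicate numbers do not pair the horses. Same-numbered juvenile and adult libraries deviated from their group means with correlations of -0.32, 0.087 and -0.059 across genes, and not every library correlated best with its own number. With the replicate block the number of DEGs was 241, and the interaction gave 413 genes. Depth limits the scarce genes: ALDH8A1, SLC2A2 and KRT1 had at most 3 reads in every library of 1 group.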

Other observations

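The organ lists were also summed, as CPM without TMM factors, in the 18 other libraries of the series. The pancreas acinar genes had 15.9 to 67.9 CPM there, against 157522 in MHLBA 1. The hepatocyte genes had 122 to 10903.5, so that at least 1 other library held more of them than MHLBA 2 with 9030.2. The DP long bone libraries held at most 453 CPM of them with TMM factors, so the highest library was a pituitary one. Which members of the list made up its sum, and whether they came from liver, was not tested. The kidney genes had 6.07 to 92.6, against 118 in MHLBA 3. The keratinocyte genes had 17.4 to 271 with a median of 122, against 99.7 in MHLBJ 3, which was thus not high for the series. The estimated biological coefficient of variation in the MH long bone was 45.2%, and 35.1% without MHLBA 1, against 50.6% in the DP long bone.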
